A study of Anser cygnoides with 18 samples.

Results

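Livers were compared with subcutaneous adipose (SA) of the same 3 geese after high-intake feeding, with 6 of the 18 libraries of the series and all mRNAs and long noncoding RNAs (lncRNAs) whose mean FPKM over those 6 libraries was above 0.1. That minimum kept 12253 of 14628 mRNAs and 996 of 1701 lncRNAs. FPKM is the fragment number scaled to transcript length and to the mapped reads of a library. The birds were male Tianfu meat geese, a commercial hybrid of Anser anser and Anser cygnoides. The high-intake geese (T1, T2 and T3) were force-fed several meals a day that grew larger over a trial of 19 days, and the control geese (C1, C2 and C3) ate the same diet freely. All geese drank freely, went without feed during their last night and were 145 days old when they were killed, so each library is from a bird that had fasted overnight. Liver and SA libraries carry the goose number (T1-L and T1-SA are the liver and the SA of goose T1). Each was made from a whole piece of tissue, in which fewer cells of a type and less RNA per cell cannot be told apart. Values below are in the order of goose T1, T2 and T3 unless a library is named.

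In birds the liver is the main site of fatty acid synthesis, and most of the fat stored by adipocytes arrives from it in lipoproteins. Hepatocytes also make the clotting factors, carriers and acute phase proteins of plasma, make glucose during fasting and turn amino nitrogen into uric acid. Adipocytes hold triacylglycerol in a droplet coated with perilipins, take up fatty acids that lipoprotein lipase frees at the vessel wall, and release them when adrenergic signals or falling insulin activate their lipases.

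The tissues differed at most expressed genes. Of 12253 mRNAs, 7048 (57.5%) were called, that is, had a Benjamini-Hochberg (BH) adjusted p under 0.05 in limma's moderated test with the goose as a block. Of these, 2011 (16.4% of those tested) were higher and 5037 (41.1%) lower in liver. Direction near 0 depended on scale: the median difference of liver minus SA in log2(FPKM + 1) was -0.36, and centring each library on its median moved every difference up by 0.54. After centring, 6629 mRNAs (54.1%) were called, 4071 (33.2%) higher and 2558 (20.9%) lower in liver, so that the share of calls higher in liver was 28.5% without centring and 61.4% with it. Large differences are those called and at least 3 on the log2 scale without centring, at 774 mRNAs (6.32%). A shift of 0.54 could not change their sign, and all 774 kept their call after centring. Their smallest absolute difference was then 2.46, so which mRNAs count as large depends on centring. Without it, large differences were higher in liver at 364 mRNAs (2.97%) and lower at 410 (3.35%). The 3 livers did not overlap the 3 SA at 8173 mRNAs (66.7%), and 6746 (55.1%) of those tested were both called and free of overlap. Summed over all mRNAs, FPKM ranged between 395212 and 438339 among the livers, against 316387 and 394709 among the SA. On a log2(FPKM + 1) scale, differences understate the change of low genes.

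Marker genes of both cell types lay on the side of their labelled tissue. Of 17 tested hepatocyte markers, 15 were higher and 0 lower in liver, with a median difference of 7.16 beside -0.36 over all mRNAs. Of 8 tested adipocyte markers, 7 were lower in liver (median -5.59), and 1, GPD1, was higher. Adiponectin (ADIPOQ), the hormone that adipocytes secrete, was at 0.104, 0.115 and 0.0651 FPKM in the livers, against 55.4, 68.0 and 77.4 FPKM in the SA. CPS1, the urea cycle enzyme that marks mammalian hepatocytes, had only 0.066, 0.0865 and 0.132 FPKM in the livers and fell under the minimum. Birds excrete uric acid rather than urea.

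The most abundant mRNAs differed in kind between the tissues. In the SA the first was a gene annotated as adipocyte-like fatty acid-binding protein (FABP; LOC106030656), a cytosolic carrier of fatty acids. It had 29.9, 3.92 and 71.8 FPKM in the livers, against 37888, 25553 and 41195 FPKM in the SA, a difference of -10.58 ± 0.56 (SE; adjusted p = 2.2e-05). That single gene took 9.60, 8.08 and 10.8% of the summed FPKM of the SA. In the livers the first was serum amyloid A2 (SAA2), an acute phase protein, with 12421, 43097 and 1291 FPKM, against 46.1, 21.4 and 26.7 FPKM in the SA. The livers did not overlap the SA at SAA2, yet differed 33.4-fold among themselves. The ferritin heavy chain FTH1, which stores iron, was second in both tissues, at 11399.5, 8734 and 11239 FPKM in livers and 11002, 5906 and 3969 FPKM in SA, and was not called (difference 0.71 ± 0.42). Transthyretin (LOC106037570), the carrier of thyroid hormone, was next in the livers with 10646, 5846 and 13032 FPKM, against 10.8, 2.41 and 22.7 FPKM in the SA. Hemoglobin alpha-A (LOC106033601), a globin of red cells, was among the 5 highest mRNAs of the SA and was not called. It had 2811, 1853 and 2566 FPKM in the livers and 2639, 2209 and 7555 FPKM in the SA.

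**Figure D1:**
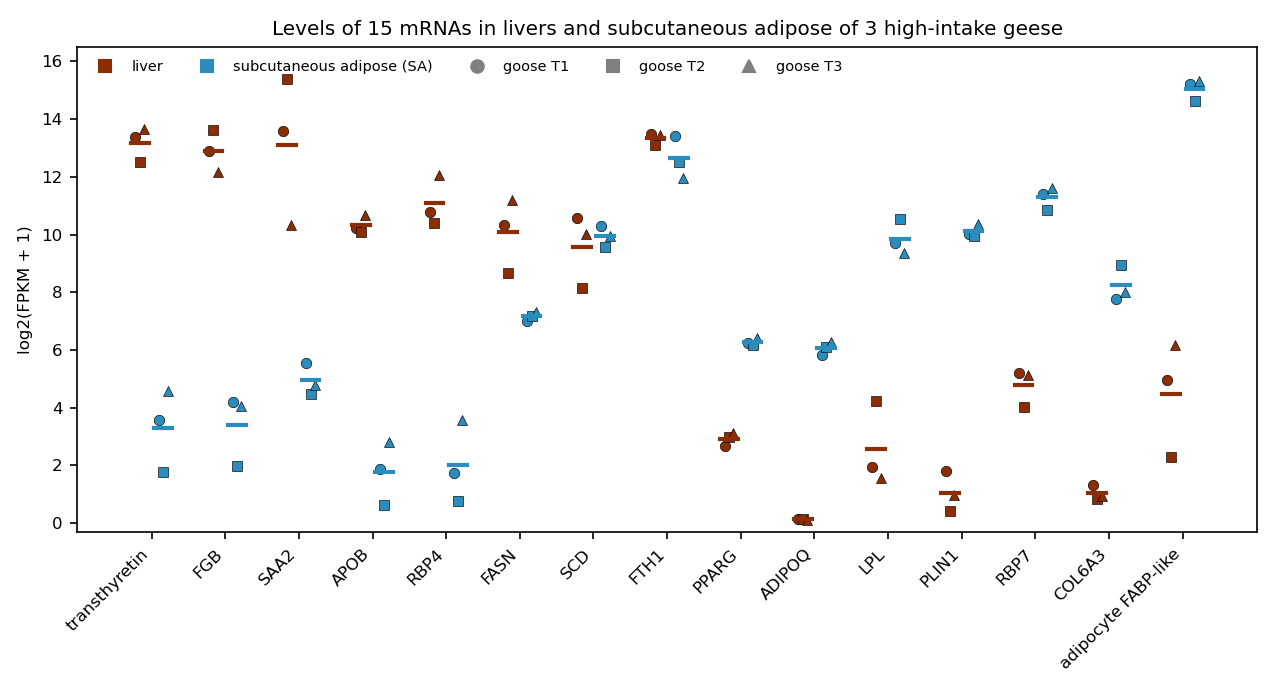
Level of 15 mRNAs on a log2(FPKM + 1) axis, one symbol per goose (circle T1, square T2, triangle T3), livers in brown left of SA in blue, with a line at the mean of each 3 libraries. Liver and SA are far apart at the genes of plasma proteins and of the adipocyte, while SCD and FTH1 overlap; the 3 livers spread from 1291 to 43097 FPKM at SAA2.

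Proteins of plasma gave the largest differences. Among genes with a symbol, the 10 highest in liver relative to SA included, on the log2 scale, 9.49 for FGB, 9.07 for RBP4, 8.79 for FGA, 8.76 for SPP2, 8.60 for PSPH, 8.58 for TM4SF4, 8.58 for APOH, 8.56 for APOB and 8.52 for C9. FGB, the fibrinogen beta chain, had 7629.7, 12724 and 4568 FPKM in the livers, against 17.2, 2.98 and 15.5 FPKM in the SA (adjusted p = 4.7e-05). Of 41 tested plasma protein genes, 31 were higher and 3 lower in liver (median 5.36), and 28 of the higher ones were large differences. C9, which forms the pore of the complement attack complex, had 1063, 1809.5 and 649 FPKM in the livers and 2.83, 0.945 and 2.40 FPKM in the SA. With it, 16 of 18 complement genes were higher in liver, C6 by 7.25. The exception was CD59, an inhibitor of that pore on host cells, called lower in liver by a small margin (-0.80 ± 0.21) that centring removed. A few genes of circulating proteins ran the other way. CPN1, a carboxypeptidase that trims complement peptides and kinins, had 0.251, 0.0597 and 0.17 FPKM in the livers and 54.7, 31.0 and 42.0 FPKM in the SA (-5.20 ± 0.21). F13A1, the subunit of clotting factor XIII made by macrophages and platelets in mammals, was also lower in liver (-3.72 ± 0.38), as was ITIH5 (-4.15 ± 0.24), of the inter-alpha-trypsin inhibitor family.

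Some abundant hepatocyte genes could not be compared, because they were listed at exactly 0 in single livers. A 0 in these values can be an estimate that failed. Albumin (ALB) was at 0, 9871 and 0 FPKM in the livers, against 62.8, 14.8 and 138 FPKM in the SA, so that by its values alone it would be lower in 2 of 3 livers. Fibrinogen gamma (FGG) was at 7045, 0 and 4104 FPKM and transferrin (TF), the iron carrier of plasma, at 4875, 0 and 4991 FPKM in the same 3 livers. None of these 3 was called. FGB and FGA, whose chains join FGG in the same molecule, had no such value in any liver. In all, 7 genes were listed at 0 in 1 or 2 livers while another liver was above 50 FPKM, and 7 likewise in the SA, with ATP8 among both.

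Genes of the lipid droplet coat and its lipases had no common direction. Perilipin 1 (PLIN1), which guards the droplet of mature adipocytes, had 2.46, 0.333 and 0.945 FPKM in the livers and 1047, 995 and 1330.3 FPKM in the SA (-9.07 ± 0.29; adjusted p = 3.9e-06). PNPLA2, the lipase that starts the breakdown of triacylglycerol, had 10.8, 3.06 and 5.89 FPKM in the livers, against 964, 1773 and 1324 FPKM in the SA (-7.57 ± 0.42). A gene without a symbol (LOC106038244, named PNPLA2-like here) was annotated with the full name of PNPLA2, patatin-like phospholipase domain-containing protein 2. It was at 27.8, 29.4 and 72.6 FPKM in the livers and 111, 100.4 and 0 FPKM in the SA, with a 0 in T3-SA. Without goose T3 it was called lower in liver. Another perilipin was higher in liver. PLIN2, which coats droplets in most cells, had 207, 207 and 185 FPKM in the livers and 34.2, 28.2 and 32.4 FPKM in the SA (2.63 ± 0.20). HSD17B11, a droplet protein, was higher in liver by 3.25. Of the 10 tested droplet and lipolysis genes, 4 were thus higher and 5 lower in liver, beside 16.4% and 41.1% of all mRNAs. A gene annotated as perilipin-3-like (LOC106044932) followed PLIN1, with 66.6, 18.1 and 59.5 FPKM in the livers and 3070.0, 2595 and 3741 FPKM in the SA. So did one annotated as Rab-18-B-like (LOC106048786; -5.37 ± 0.36), of a GTPase family found on droplets.

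Genes of fat uptake likewise went both ways. Lipoprotein lipase (LPL), which frees fatty acids from circulating triacylglycerol, had 2.82, 17.8 and 1.99 FPKM in the livers and 827, 1485 and 651 FPKM in the SA (-7.28 ± 0.32; adjusted p = 1.1e-05). Hepatic lipase (LIPC), its paralogue, had 114, 64.1 and 147 FPKM in the livers and 0.373, 0.361 and 0.657 FPKM in the SA (6.15 ± 0.24). CAV2, a protein of caveolae, the membrane pits that are dense in adipocytes, differed by -7.37. ACSL5, which joins coenzyme A to long-chain fatty acids, had 508, 50.5 and 659 FPKM in the livers and 3.43, 1.69 and 3.44 FPKM in the SA, and the lowest liver was goose T2. Over the 25 genes of lipases, uptake and fatty acid binding, 8 were higher and 12 lower in liver (median -0.40, or 0.14 after centring). Beside them stand 16.4% and 41.1% of all mRNAs, whose median of -0.36 was near that of the list. After centring, 10 were higher and 7 lower. The fatty acid carriers were exchanged. Liver FABP (LOC106037939) had 696, 2773 and 3537 FPKM in the livers and 0.607, 0.397 and 4.89 FPKM in the SA, whereas heart FABP-like (LOC106029718) had 0, 14.0 and 3.95 FPKM in the livers and 667, 432 and 592 FPKM in the SA.

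Genes of fatty acid synthesis were mostly higher in liver. Of 29 tested, 18 were higher and 4 lower (median 1.60), beside 16.4% and 41.1% of all mRNAs. FASN, fatty acid synthase, had 1292, 409.9 and 2360.5 FPKM in the livers, against 126, 143 and 160.2 FPKM in the SA (2.91 ± 0.44; adjusted p = 0.0016). ELOVL6, which lengthens its product palmitate, had 509, 159 and 725 FPKM in the livers and 2.20, 0.641 and 3.26 FPKM in the SA (7.11 ± 0.23). FADS1, the delta-5 desaturase of polyunsaturated fatty acids, differed by 6.38, and a FADS2-like gene (LOC106033870) by 7.12. The list also held 7 genes with no call, and among the 4 lower in liver were ACACB and ELOVL7, an elongase (-1.28). SCD, the delta-9 desaturase that makes oleate, was 1 of those not called. It had 1519, 283 and 1033 FPKM in the livers and 1267, 759 and 992 FPKM in the SA (-0.37 ± 0.38, adjusted p = 0.43) and had its lowest value of the 6 libraries in T2-L. The carboxylase that makes malonyl-CoA was split by gene. ACACA, the form that feeds synthesis, had 137, 60.7 and 180.1 FPKM in the livers and 13.6, 20.3 and 15.3 FPKM in the SA. ACACB, whose product in mammals restrains fatty acid entry into mitochondria, had 0.106, 0.0333 and 0.0747 FPKM in the livers and 17.6, 23.9 and 20.1 FPKM in the SA (-4.32 ± 0.21), so that it was near 0 in liver.

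Assembly of triacylglycerol used different genes for the last step. DGAT2, which adds the third fatty acid, had 6.24, 13.3 and 22.6 FPKM in the livers and 459, 554 and 515 FPKM in the SA (-5.24 ± 0.31). A gene annotated as DGAT2-like (LOC106042952) ran the other way, with 121, 42.6 and 72.9 FPKM in the livers and 0.889, 0 and 0.966 FPKM in the SA (5.56 ± 0.23). GPAM, which adds the first fatty acid to glycerol-3-phosphate, was higher in liver by 5.09. That glycerol-3-phosphate can come from glycolysis or from glyceroneogenesis, where PCK1 acts. PCK1 had 383, 3.96 and 319 FPKM in the livers and 0.548, 0 and 0.604 FPKM in the SA; T2-L lay far below the other livers but above each SA. The dehydrogenase that reduces dihydroxyacetone phosphate was again 2 genes: GPD1 had 391, 114 and 101 FPKM in the livers and 68.9, 26.1 and 54.7 FPKM in the SA, and an annotated cytoplasmic homologue (LOC106029917) had 3.22, 2.81 and 4.92 FPKM in the livers and 111, 111 and 162 FPKM in the SA. Among 17 triacylglycerol genes, 7 were higher and 5 lower in liver, beside 16.4% and 41.1% of all mRNAs. After centring, 10 were higher and 3 lower.

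Genes of fat export as lipoprotein were higher in liver at the steps that build the particle. APOB, the structural protein of very low density lipoprotein, had 1188, 1091 and 1640.3 FPKM in the livers and 2.69, 0.527 and 6.09 FPKM in the SA (8.56 ± 0.32; adjusted p = 6.5e-06). MTTP, which loads lipid onto APOB, had 257, 159 and 363 FPKM in the livers and 0.528, 0.114 and 1.03 FPKM in the SA. TM6SF2, needed in mammals to enlarge the particle, differed by 5.34, and SAR1B, a GTPase of the vesicles that carry it, by 3.21. Of 16 genes in the list, 8 were higher in liver, 6 of them by 3 or more, and 5 were lower, beside 16.4% and 41.1% of all mRNAs. After centring, 9 were higher and 1 lower. Apolipoprotein A-I (LOC106039769), the main protein of high density lipoprotein, differed less (2.58 ± 0.59), with 12547, 3764 and 3834 FPKM in the livers and 646, 658 and 1986 FPKM in the SA.

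Genes of oxidation were mostly higher in liver, and OXCT1 and BDH1, of ketone body use, were lower. Of 43 genes of fatty acid oxidation, ketone bodies and peroxisomes, 27 were higher and 3 lower in liver. HAO1 and HAO2, peroxisomal hydroxyacid oxidases, led with 6.12 and 5.98. OXCT1, the enzyme by which other tissues use ketone bodies, had 1.21, 1.33 and 1.20 FPKM in the livers and 25.6, 34.7 and 24.1 FPKM in the SA (-3.68 ± 0.21). BDH1, which interconverts the 2 ketone bodies, lay on the same side as OXCT1, with 1.78, 1.84 and 2.43 FPKM in the livers and 34.4, 34.5 and 50.6 FPKM in the SA. PPARA, the receptor that drives oxidation genes in fasted mammals, was at 97.6, 54.3 and 112 FPKM in the livers and 8.04, 8.55 and 7.71 FPKM in the SA (3.23 ± 0.26). PPARG, the receptor that drives adipocyte genes, was at 5.38, 6.87 and 7.72 FPKM in the livers and 74.3, 71.6 and 83.7 FPKM in the SA (-3.35 ± 0.19).

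**Figure D2:**
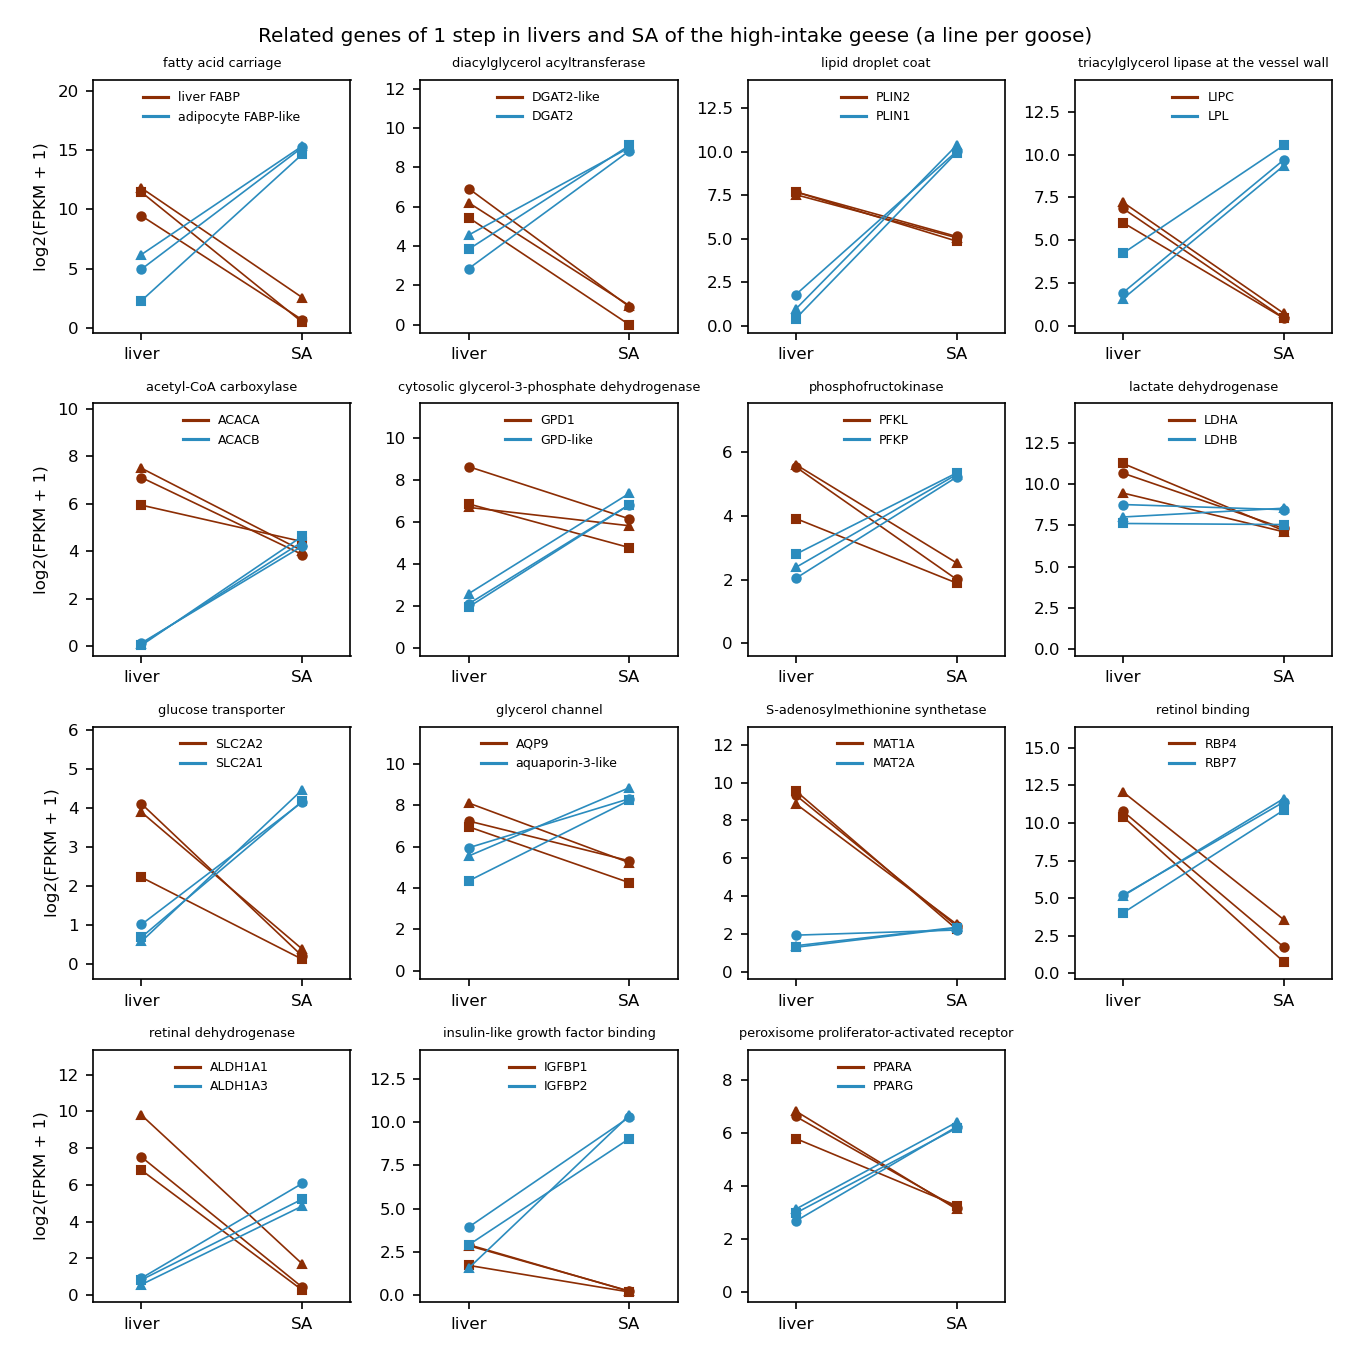
Log2(FPKM + 1) of 15 sets of related genes in liver (left) and SA (right) of the high-intake geese, one line per goose; brown is the gene higher in liver and blue its relative. The lines cross or converge in each panel, with 2 weak cases: LDHB differs by -0.05 and was not called, and MAT2A by -0.76, whose call centring removes.

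Isozymes of sugar handling differed in opposite directions. Related genes of similar sequence can share reads, and how the quantification divided such reads is not known. Of the phosphofructokinases, PFKL differed by 2.88 and PFKP by -2.88. SLC2A2, the low-affinity glucose transporter of hepatocytes, had 16.1, 3.63 and 13.7 FPKM in the livers and 0.142, 0.0785 and 0.292 FPKM in the SA. SLC2A1, the common glucose transporter, had 1.00, 0.598 and 0.481 FPKM in the livers and 16.6, 16.9 and 21.0 FPKM in the SA. PKM, a pyruvate kinase, was lower in liver (-3.21 ± 0.22). Release of glucose stayed with the liver: G6PC, the glucose-6-phosphatase, had 529, 145 and 147 FPKM in the livers and 1.12, 0.474 and 2.32 FPKM in the SA, and FBP1-like (LOC106045365), of gluconeogenesis, had 2118, 1495 and 2619.9 FPKM in the livers and 9.32, 4.50 and 10.4 FPKM in the SA. GYS2, the liver glycogen synthase, was higher by 5.43. Of 34 genes of glycolysis, gluconeogenesis and glycogen, 17 were higher and 9 lower in liver, beside 16.4% and 41.1% of all mRNAs. Glycerol channels were paired in the same way, with AQP9 at 2.50 and aquaporin-3-like (LOC106045190) at -3.19.

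Amino acid and nitrogen enzymes were among the lists furthest from all mRNAs. Of 57 tested, 40 were higher and 5 lower in liver (median 2.95), with 28 of the higher ones by 3 or more. PSPH, the last enzyme of serine synthesis, had 1474, 992 and 1571 FPKM in the livers and 2.92, 1.07 and 3.85 FPKM in the SA (8.60 ± 0.21). GPT2, an alanine transaminase, had 605, 326 and 261 FPKM in the livers and 1.69, 0.389 and 2.14 FPKM in the SA (7.36 ± 0.32). MAT1A, the liver form of S-adenosylmethionine synthetase, differed by 6.87. Of 15 purine and uric acid genes, 9 were higher and 5 lower in liver, beside 16.4% and 41.1% of all mRNAs. PPAT, which starts the purine ring, had 94.4, 55.4 and 119 FPKM in the livers and 2.95, 3.77 and 2.49 FPKM in the SA. PAICS and GART, which build the ring, differed by 5.05 and 4.47, and XDH, which oxidizes purines to uric acid, by 3.92. HPRT1, which salvages purine bases, was lower in liver. It had 2.46, 5.20 and 2.24 FPKM in the livers and 14.0, 13.1 and 16.3 FPKM in the SA, and ADA, adenosine deaminase, differed by -2.29. SLC38A4, an amino acid transporter of hepatocytes, was higher in liver by 7.34.

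Bile and drug genes were mostly higher in liver. All 26 tested genes of cholesterol and bile acids had calls higher in liver (22) or no call. SLC51B, a subunit of the basolateral bile acid exporter, had 145, 247 and 184 FPKM in the livers and 0.18, 0.076 and 0.698 FPKM in the SA, and ABCB11, the canalicular bile salt pump, differed by 5.78. CYP7A1 (LOC106039033), which starts bile acid synthesis, spread widely, with 4.55, 6.58 and 60.8 FPKM in the livers and 0.0634, 0.0418 and 0.3 FPKM in the SA. Among 19 conjugation and steroid genes, 14 were higher in liver and 2 lower. Retinoid genes had no common direction: of 12, 4 were higher and 5 lower in liver, or 5 and 1 after centring, and the median of -0.28 was near the -0.36 of all mRNAs. RBP4, the retinol carrier of plasma, had 1758, 1362 and 4288 FPKM in the livers and 2.34, 0.686 and 10.8 FPKM in the SA (9.07 ± 0.26). RBP7, a cytosolic carrier of the same molecule, had 35.5, 15.1 and 34.2 FPKM in the livers and 2695, 1851 and 3154 FPKM in the SA (-6.51 ± 0.23). Of the enzymes that make retinoic acid, ALDH1A1 differed by 7.24 and ALDH1A3 by -4.61. HPX, which carries heme in plasma, was higher in liver by 6.13, and of 19 iron and heme genes 9 were higher and 1 lower.

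Without centring, transcription factors divided by tissue with few exceptions. Of 18 hepatocyte factors, 16 were higher in liver. NR1H4, the bile acid receptor, had 19.9, 23.4 and 34.3 FPKM in the livers and 0.0519, 0.0172 and 0.0948 FPKM in the SA (4.64 ± 0.23), and NR0B2, a repressor it induces, differed by 4.51. The 2 lower in liver were NR1H3 (-1.28), the oxysterol receptor that mammalian adipocytes also express, and TBX3 (-1.03); neither was called after centring. Of 18 adipocyte factors, none was higher and 15 were lower in liver, beside 16.4% and 41.1% of all mRNAs. After centring, 1 was higher and 9 were lower. KLF4 had 0.0518, 0.155 and 0.0873 FPKM in the livers and 31.5, 17.0 and 29.7 FPKM in the SA (-4.57 ± 0.26), and EBF3 and EBF1, early B cell factors that act in adipocyte commitment, differed by -4.14 and -3.84. A gene annotated as adipogenesis regulatory factor-like (LOC106032017) had 6.50, 5.20 and 23.7 FPKM in the livers and 1276, 1133 and 3119 FPKM in the SA.

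Without centring, receptors and signal relays for insulin, glucagon and adrenaline were mostly lower in liver. Of 28, 19 were lower and 2 higher, beside 41.1% and 16.4% of all mRNAs. After centring, 10 were lower and 4 higher. ADRB3, the beta-3 adrenergic receptor that starts lipolysis in rodents, was listed at 0 in every liver and had 8.28, 13.1 and 20.8 FPKM in the SA. ADORA1, an adenosine receptor that opposes lipolysis, differed by -4.64. PRKAR2B, the protein kinase A subunit typical of mammalian adipocytes, had 0.683, 0.546 and 0.833 FPKM in the livers and 123, 109 and 126 FPKM in the SA (-6.16 ± 0.19). The glucagon receptor (GCGR) was also lower in liver, with 18.9, 8.03 and 7.61 FPKM in the livers and 39.4, 32.8 and 42.8 FPKM in the SA (-1.76 ± 0.28). NPR3, the receptor that clears natriuretic peptides, a lipolytic signal in mammals, came among the genes lower in liver (-7.83 ± 0.20) after S100A1, a calcium-binding protein (-9.22), and PLIN1.

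Adiponectin and the proteins that bind it were lower in liver. Besides ADIPOQ (-5.94 ± 0.21), CDH13, a cadherin that binds adiponectin, had 2.66, 3.70 and 1.74 FPKM in the livers and 358, 394 and 348 FPKM in the SA (-6.67 ± 0.21). Of its 2 classical receptors, ADIPOR1 differed by -2.52 (adjusted p = 0.0018) and ADIPOR2 by -3.85. ADIPOR2, described as the liver form in mice, had 56.1, 28.0 and 48.2 FPKM in the livers and 635, 491 and 779.7 FPKM in the SA. Of 26 adipokines, hepatokines and their receptors, 7 were higher and 11 lower in liver, or 10 and 9 after centring. Of 24 tested in the growth hormone and thyroid list, 8 were higher and 10 lower in liver, or 10 and 7 after centring. Without centring, the shares lower in liver in both lists were near the 41.1% of all mRNAs. IGFBP2, a binding protein of insulin-like growth factors, had 14.3, 6.53 and 1.97 FPKM in the livers and 1244, 527 and 1337 FPKM in the SA (-7.10 ± 0.50), whereas IGFBP1 differed by 2.28. Both deiodinases that make active thyroid hormone were higher in liver, DIO1 by 3.93 and DIO2 by 3.77. LEAP2, a liver peptide that opposes ghrelin in mammals, was higher by 5.76.

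Most matrix and patterning genes were lower in liver. COL6A3, a chain of the collagen VI of the adipocyte's surroundings, had 1.47, 0.802 and 0.917 FPKM in the livers and 216, 493 and 254 FPKM in the SA (-7.20 ± 0.32). Of 24 collagen genes 18 were lower in liver, and of 44 other matrix genes 35 (medians -2.15 and -2.74). Beside them stand 41.1% of all mRNAs and their median of -0.36. After centring, 15 collagen genes were lower and 6 higher in liver, and 30 other matrix genes were lower and 7 higher. Of all mRNAs, 20.9% were then lower and 33.2% higher. COL14A1 (1.41) and FN1, fibronectin (0.60), were higher in liver, but FN1 was not called with any 1 goose left out or without the goose as a block. VIM, the intermediate filament of mesenchymal cells, differed by -7.60, and MFAP5, of elastic microfibrils, by -6.94. Of 45 patterning factors of the homeobox and T-box families, which record where a tissue lies in the body, 40 were lower in liver, 24 after centring. MEOX2 had 0.395, 0.283 and 0.233 FPKM in the livers and 32.5, 32.1 and 38.1 FPKM in the SA, and HOXA7 differed by -4.35. HHEX, a factor of liver development, was 1 of the 2 higher in liver, by 1.10. Of 45 growth factor genes 37 were lower (25 after centring), led by PDGFC (-4.51) and SFRP2 (-4.36), an inhibitor of Wnt signals.

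Organelle genes differed by smaller amounts. Of 47 nuclear genes of the citric acid cycle and oxidative phosphorylation, 30 were higher in liver and none by as much as 3. DLAT and PDHB, of the pyruvate dehydrogenase complex, differed by 2.42 and 2.29, while CS, citrate synthase (-1.57), and IDH3A (-2.02) were lower. Of 13 mitochondrially encoded genes, 9 were higher in liver. The 13 together took 1.76, 1.06 and 3.52% of FPKM in the livers, against 0.620, 1.17 and 0.484% in the SA. In goose T2 their share was thus lower in liver. ATP8, listed at 0 in T1-L, T2-L and T3-SA, is part of these sums and had 515 FPKM in T2-SA. Cytosolic ribosomal proteins took 10.1 to 10.7% of FPKM in the livers and 14.5 to 16.7% in the SA. Of 52, none was higher and 14 were lower in liver, a smaller share than the 41.1% of all mRNAs. Their median of -0.52 was near the -0.36 of all mRNAs, and after centring 1 was higher and 1 lower. Of 47 genes of folding and export in the endoplasmic reticulum, 18 were higher and 3 lower, or 32 and 1 after centring, beside 16.4% and 41.1% of all mRNAs without it.

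**Figure D3:**
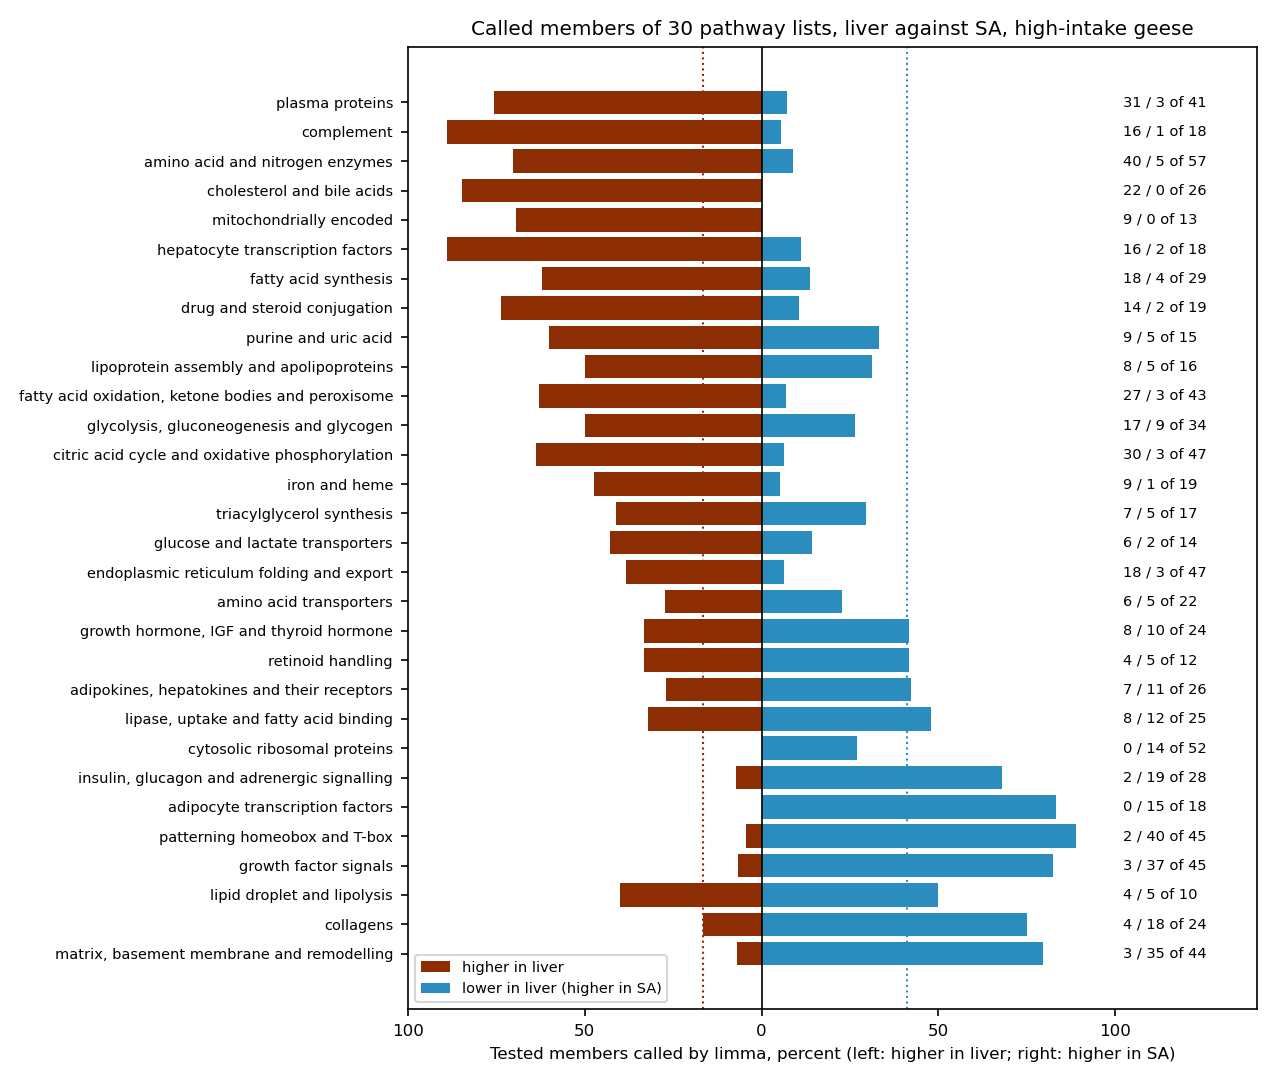
Percent of tested members called by limma in each of 30 lists, higher in liver to the left and lower in liver to the right, with counts beside each bar and dotted lines at the share over all mRNAs (16.4% higher, 41.1% lower). Plasma proteins (31 of 41 higher) stand at one end and matrix genes (35 of 44 lower) at the other, ordered by the median difference.

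Markers of other cells moved with the tissues. Endothelial markers were lower in liver at 15 of 19 (VWF -4.52), but STAB2 and LYVE1, which mark the sinusoids of liver, were higher by 2.49 and 2.50. Together these markers summed to 101 to 124 FPKM in the livers, against 332 to 516 FPKM in the SA. Fibroblast and preadipocyte markers were lower at 12 of 14 and summed to 128 to 165 FPKM in the livers, against 715 to 1821 FPKM in the SA. Smooth muscle and pericyte markers were lower at 8 of 10, or 5 after centring, beside 41.1% of all mRNAs without it, and summed to 32.1 to 53.9 FPKM in the livers and 212 to 234 FPKM in the SA. Of 15 immune markers, 2 were higher and 2 lower, or 7 and 1 after centring, with sums of 215 to 416 FPKM in the livers and 341 to 877 FPKM in the SA. They went both ways among genes of macrophages: the receptor MARCO was higher in liver by 3.56, whereas CD74, of antigen presentation, differed by -1.46 and CSF1R, a growth factor receptor, by -1.11, a call that centring removed. Of 18 keratinocyte markers only 8 were found by symbol among the mRNAs. Of those 8, 2 passed the minimum, and they differed in direction. DSP, desmoplakin, was higher in liver by 2.31, and PPL, periplakin, had 0.0261, 0.00876 and 0.0241 FPKM in the livers and 154, 154 and 188 FPKM in the SA. The part of these cells in the differences of matrix, patterning and signalling genes was not tested.

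Each SA library also held low levels of hepatocyte transcripts. Over 87 mRNAs higher in liver by at least 6 and above 50 FPKM in each liver, the median level in SA was 0.306% of that in the liver of the same goose for T1, 0.0806% for T2 and 0.386% for T3. FGB, transthyretin, RBP4 and APOB were all lowest in T2-SA. The log2 levels of these 87 genes in T1-SA correlated across genes with those in T1-L at r = 0.88, in T2-L at 0.77 and in T3-L at 0.62, without a test. The correlations of T2-SA were 0.74 with T1-L, 0.68 with T2-L and 0.54 with T3-L. Those of T3-SA were 0.84 with T1-L, 0.74 with T2-L and 0.83 with T3-L, so that only T1-SA was closest to the liver of its own goose. These genes were selected on both tissues, and genes are not independent replicates. In the other direction, 59 mRNAs lower in liver by at least 5 and above 50 FPKM in each SA had a median of 0.634% of the SA level in T1-L, 0.83% in T2-L and 0.574% in T3-L. Whether such transcripts come from these cells or from other tissue was not tested.

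The 3 livers spread more among themselves than the 3 SA, as a description without a test. The median SD of log2(FPKM + 1) over 4088 mRNAs above a mean of 10 FPKM was 0.29 in the livers and 0.21 in the SA. T2-L was the liver most often below both others by more than 1 on the log2 scale (191 mRNAs, against 55 for T1-L and 135 for T3-L). T1-L was most often above both others (212 mRNAs, against 143 for T2-L and 167 for T3-L). The genes named here for that liver were chosen after their values were seen. PCK1, ACSL5, FASN, SCD and ELOVL6 were all lowest in T2-L, as was CETP, which exchanges lipids between lipoproteins, with 70.4, 10.5 and 110.0 FPKM in the livers. ABCC2, which exports conjugates into bile, had 111, 22.1 and 89.5 FPKM, and CYP2H1-like (LOC106034087), a drug-induced cytochrome, 673, 37.7 and 1468 FPKM in the livers. T2-L was the highest liver at several acute phase and defence genes. Besides SAA2, gallinacin-8-like (LOC106038135), a defensin, had 57.0, 281 and 22.7 FPKM in the livers and 0.118, 0.116 and 0.064 FPKM in the SA. Avidin-like (LOC106036393), a biotin-binding protein induced by inflammation in chickens, had 38.2, 598 and 12.7 FPKM in the livers and 53.0, 173 and 46.4 FPKM in the SA, and was highest in goose T2 in both tissues. XBP1, a factor of the unfolded protein response, had 27.0, 126 and 19.7 FPKM in the livers and 29.6, 37.6 and 37.8 FPKM in the SA and was not called. A single goose gives no test of these differences. LPIN1, a phosphatidate phosphatase, had 19.3, 8.06 and 33.2 FPKM in the livers and 8.83, 8.80 and 8.52 FPKM in the SA, and was called higher in liver only without goose T2 or after centring (log2 difference 1.44 without goose T2, and 0.92 with all 3 geese).

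**Figure D4:**
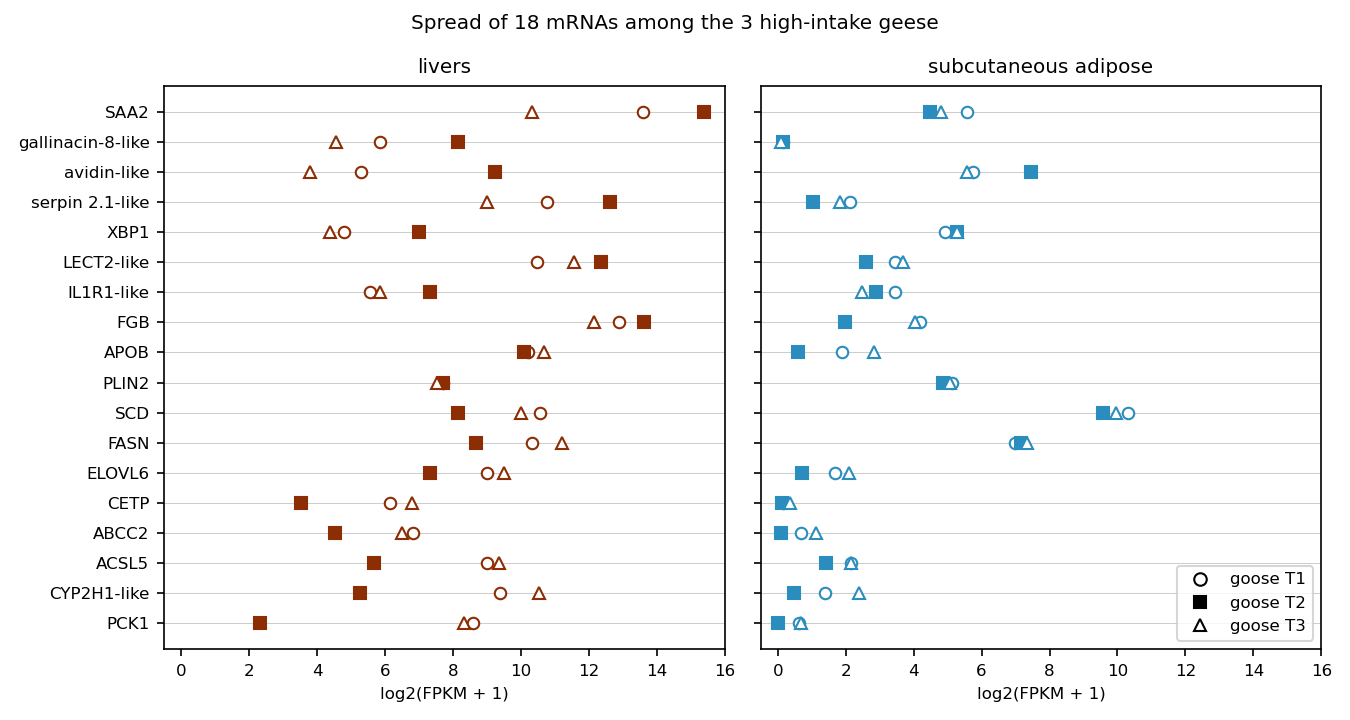
Log2(FPKM + 1) of 18 mRNAs in the 3 livers (left) and the 3 SA (right); filled squares are goose T2, open circles T1 and open triangles T3. T2-L is highest from SAA2 to FGB, near the other livers at APOB and PLIN2, and lowest from SCD to PCK1.

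A smaller share of lncRNAs than of mRNAs was called, and without centring most of those were lower in liver. Of 996 tested, 352 (35.3%) were called, 85 (8.53%) higher and 267 (26.8%) lower in liver. Centring used the median of the mRNAs of each library, and then 398 lncRNAs were higher and 53 lower. It moved every lncRNA difference up by 0.54, while their median without it was -0.27. Without centring, only 12 (1.20%) differed by 3 or more, 5 (0.502%) higher and 7 (0.703%) lower in liver. The tissues did not overlap at 616 lncRNAs (61.8%), and 347 (34.8%) were also called. Their levels were low, with a median mean of 0.362 FPKM, against 5.33 FPKM for mRNAs, and 18 and 66 were called without goose T1 and without goose T2. Above a mean of 1 FPKM, 111 of 184 lncRNAs and 6221 of 10001 mRNAs were called. Positions below are on scaffolds of the AnsCyg_PRJNA183603_v1.0 assembly, and the strand of these lncRNAs is not given in the values used here.

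The largest difference toward liver was XLOC_317843 (NW_013185857.1:378147-380891), whose nearest protein-coding gene, ANGPTL4, an inhibitor of lipoprotein lipase, lies 14952 bp away. It had 29.2, 18.7 and 15.2 FPKM in the livers and 0.1, 0.0341 and 0.231 FPKM in the SA (4.25 ± 0.33; adjusted p = 0.0025). XLOC_299667 (NW_013185827.1:681048-682480), 25556 bp from DIO2, had 4.27, 7.90 and 32.7 FPKM in the livers and was listed at 0 in every SA. XLOC_083589 (3.59 ± 0.59), XLOC_080387 (3.53 ± 0.50) and XLOC_176647 (3.38 ± 0.37) followed, the first 2 also listed at 0 in every SA. In the control geese, XLOC_083589 was listed at 0 in every liver and every SA. XLOC_299667, XLOC_083589, XLOC_080387 and XLOC_176647 missed the threshold without goose T1, with adjusted p of 0.0504 to 0.0523, and XLOC_299667 also without goose T2. Toward SA, XLOC_116409 (NW_013185683.1:34286-36425) had 0.901, 0.599 and 0.644 FPKM in the livers and 26.2, 34.3 and 35.0 FPKM in the SA (-4.25 ± 0.35). XLOC_232887, 116 bp from NACC2, differed by -4.20, XLOC_270010 by -4.08 and XLOC_175642 by -3.65. XLOC_316689 (NW_013185854.1:95898-116736) overlapped BMPER, a modulator of bone morphogenetic proteins, with 0.569, 0.508 and 0.276 FPKM in the livers and 20.1, 20.2 and 17.7 FPKM in the SA; BMPER itself differed by -3.44. Reads of a gene and of a lncRNA that overlaps it cannot be told apart without strand.

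The genes nearest to called lncRNAs were read beside the 16.4% of all mRNAs called higher and 41.1% called lower in liver. Of 210 called lower in liver with a protein-coding gene within 10000 bp, the nearest gene was called lower in liver at 164 and higher at 6. Of 45 called higher in liver, it was called higher at 22 and lower at 6. These counts rest on the values without centring. After centring on the mRNA medians, 398 lncRNAs were called higher and 53 lower in liver. Of the 255 called lncRNAs with a protein-coding gene within 10000 bp, 134 overlapped a protein-coding gene. Reads of such a pair cannot be told apart without strand. The counts of direction were not split by overlap, and the part of shared reads in them was not tested. The next 3 lncRNAs were picked after their values were seen, for the genes they lie beside. XLOC_260064, 2006 bp from FOXA2, a hepatocyte factor (2.61), had 9.07, 1.12 and 14.5 FPKM in the livers and 0.184, 0 and 0 FPKM in the SA. XLOC_199084, which overlaps ELOVL6, had 9.80, 0.742 and 8.36 FPKM in the livers and 0.0094, 0 and 0.0202 FPKM in the SA, lowest in T2-L as ELOVL6 was. Both lost their call without goose T1, with adjusted p of 0.094 for XLOC_260064 and 0.097 for XLOC_199084. XLOC_069831, 499 bp from UNG, the gene next to ACACB, was listed at 0 in every liver and had 3.73, 4.88 and 8.21 FPKM in the SA.

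The control geese gave the same direction at every large mRNA difference. There 4852 of 13257 mRNAs (36.6%) were called, and of the 774 large differences of the high-intake geese 774 had the same sign and 762 were called with that sign. The median difference of the 364 higher in liver was 4.57 in high-intake geese and 4.30 in control geese. That of the 410 lower in liver was -3.75 in high-intake geese and -3.13 in control geese. These medians cannot compare the feeding groups, because the mRNAs were selected for a large difference in the high-intake geese. The tissue by feeding term over all 12 libraries tested whether a contrast differed between the feeding groups. It was called at 219 of 12755 mRNAs (1.72%), 115 with a more positive and 104 with a more negative difference in high-intake geese. C2-SA stood apart, with a summed FPKM of 107522, against 306428 to 438339 in the other 11, and without goose C2 the count was 8 (0.0644%), all among the 219. It was 525 without goose C1, 330 without goose T1, 69 after centring and 27 without the goose as a block, so that this count rests on single geese and on the fit.

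Of those 8, CDHR5, a cadherin of microvilli, had 12.97, 28.1 and 19.3 FPKM in high-intake livers, against 0.61, 0.0282 and 0.245 FPKM in control livers, and was under 0.6 FPKM in every SA of both groups. Its term was 4.26 (adjusted p = 7.0e-09, and 0.038 without C2). RBP7 had a smaller gap between tissues in high-intake geese (term 3.09; adjusted p = 0.032 without C2): its livers had 35.5, 15.1 and 34.2 FPKM in the high-intake group, against 0.837, 0.354 and 1.27 FPKM in controls, and its SA had 2695, 1851 and 3154 FPKM in the high-intake group, against 2185, 544 and 2235 FPKM in controls. GABRA4, a subunit of a GABA receptor, had 10.3, 12.5 and 9.15 FPKM in high-intake SA, against 0.933, 1.52 and 0.873 FPKM in control SA, and was under 0.03 FPKM in every liver. The other 5 were genes of skeletal muscle, ACTA1, TNNT3, EEF1A2, TRIM63 and SERCA-like (LOC106029545). These 5 lost their call after centring (adjusted p = 0.066 to 0.61), which CDHR5, RBP7 and GABRA4 kept. ACTA1, the actin of skeletal muscle, had 1.18, 0.694 and 9.29 FPKM in high-intake livers and 67.7, 7.01 and 66.9 FPKM in the control livers C1-L, C2-L and C3-L, so 2 control livers held the highest values.

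Other genes had a called term only with goose C2 in the fit, although the term without it kept its sign at each gene given here. SAA2 had 12421, 43097 and 1291 FPKM in high-intake livers and 169, 291 and 86.3 FPKM in control livers, with a term of 4.54 (adjusted p = 0.018; 5.72 without C2, adjusted p = 0.23). GPT2 had 605, 326 and 261 FPKM in high-intake livers and 12.3, 14.3 and 20.4 FPKM in control livers (term 3.91, adjusted p = 1.2e-04; 4.02 without C2, adjusted p = 0.087). FADS1 and FADS2-like gave terms of 3.02 and 3.38, and of 3.32 and 3.61 without C2. LPL had 827, 1485 and 651 FPKM in high-intake SA, against 407, 127 and 214 FPKM in control SA, and a term of -3.04 (adjusted p = 0.019; -2.70 without C2, adjusted p = 0.16). SUN1 and ABHD6, 2 of the 5 largest terms, rest on libraries listed at 0: SUN1 was listed at 0 in every control SA and in C1-L, and ABHD6 in T1-SA and T3-SA.

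**Figure D5:**
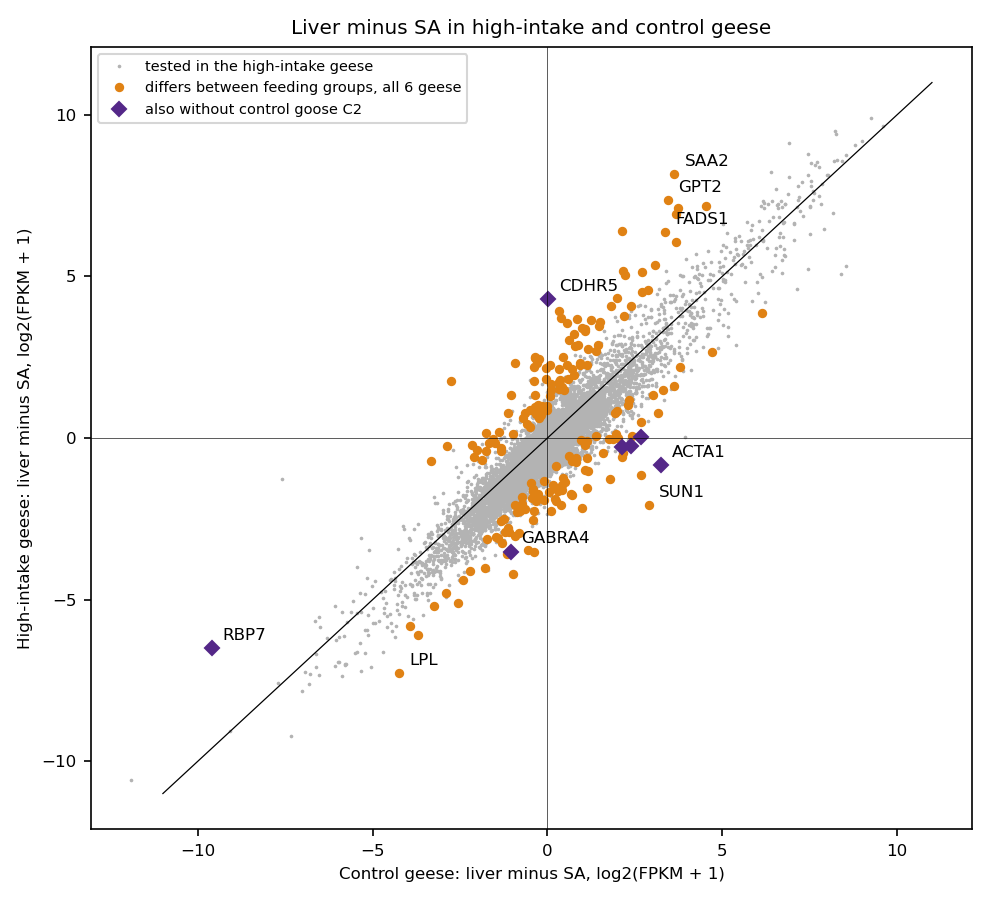
Difference of liver minus SA in log2(FPKM + 1) for each mRNA tested in both groups, high-intake geese on the vertical axis and control geese on the horizontal axis, with the line of equal values. Grey dots are all tested mRNAs, orange circles those called with all 6 geese, and purple diamonds those also called without C2. Among the diamonds are CDHR5 (term with all 6 geese 4.26), RBP7 (3.09) and ACTA1 (-4.11). Most genes lie along the line.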

How the data were processed

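RNA from liver and SA of 3 high-intake and 3 control geese was depleted of ribosomal RNA and sequenced by the authors. Per the labels, reads passed through CASAVA 1.8.2, were aligned with TopHat2 2.12 and Bowtie2 2.11 to AnsCyg_PRJNA183603_v1.0, and were quantified with Cufflinks 2.1.1. The deposited tables hold log2 of FPKM + 1, a scale read from the values, and were turned back into FPKM. They carry no counts and the paper gives only an average amount of sequence, so the depth of each library is unknown. Extraction is given as Trizol in the labels and as a column kit in the study's methods.

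Tested were mRNAs and lncRNAs with a mean above 0.1 FPKM over the 6 libraries, on log2(FPKM + 1), with limma 3.58.1 in R 4.3.3 (mean-variance trend, goose as block, BH adjustment over all features tested, two-sided). The goose number pairs liver and SA because both came from the same bird. Same-goose deviations correlated at r = 0.03, 0.16 and 0.11 for mRNAs. The highest correlation of each liver with the SA of another goose was 0.06, 0.0014 and -0.03. For T1 it was thus above that of the same goose. The tissue by feeding term was fitted over 12 libraries. On simulated data of 12253 mRNAs, 200 were changed, picked among those with higher levels, with normal noise and no goose effect. There the fit recovered 40% of changes of 1 and 98% of changes of 2 on the log2 scale. In the real data 57.5% of mRNAs were called, so these shares cannot give the recovery of this comparison. Alternatives were another pseudocount (0.1), no filter or a minimum of 1 FPKM, no trend, no goose block and leaving out each goose. Median centring was another, with lncRNAs centred on the mRNA medians of their libraries.

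Named were the 10 mRNAs with a gene symbol with the largest difference in each direction (called, mean above 1 FPKM, no overlap), the 2 largest called members of each list in each direction, the 5 mRNAs with the highest mean in each tissue, the 5 largest called lncRNAs in each direction, the 5 largest tissue by feeding terms, and genes needed to complete a step or pair. Members and lists were chosen with earlier results of these data known. Lists with no count in the text above were glucose and lactate transporters (6 of 14 higher and 2 lower in liver), amino acid transporters (6 and 5 of 22), and markers of erythrocytes (0 and 1 of 2), skeletal muscle (1 and 2 of 8), nerve (1 and 4 of 7), stellate cells (2 and 2 of 7) and cholangiocytes (3 and 1 of 7). A few named genes are not reported here.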

Additional observations from a re-analysis of the deposited data

Results flagged for a closer look

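The term that tests whether the difference of liver minus SA in log2(FPKM + 1) differed between high-intake and control geese was called by limma (BH adjusted p under 0.05 with all 6 geese) at the 26 results given here. A negative term means that the difference was more negative in high-intake geese.

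Without goose C2 the term was also called at CDHR5 (4.26), RBP7 (3.09), GABRA4 (-2.48), ACTA1 (-4.11), EEF1A2 (-2.65), SERCA-like (-2.63), TNNT3 (-2.40) and TRIM63 (-1.22). The last 5 are genes of striated muscle and were highest in the control livers C1-L and C3-L: EEF1A2 had 0, 0.0344 and 1.55 FPKM in high-intake livers, against 14.6, 1.02 and 15.2 FPKM in control livers. All 5 lost their call after centring. Their part in other differences was not tested.

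Without goose C2 the term was not called at the other 18, but kept its sign at each of them. It was then 4.02 at GPT2, 3.61 at FADS2-like, 3.20 at inhibin beta C-like, 2.42 at pantetheinase-like, 5.22 at ABHD6 and 1.38 at CYP7A1. With all 6 geese the values were as follows. The difference was more positive in high-intake geese at SAA2 (4.54), ABHD6 (4.51), L-threonine 3-dehydrogenase (4.28), GPT2 (3.91), FADS2-like (3.38), inhibin beta C-like (3.26), FADS1 (3.02), gallinacin-8-like (2.38), pantetheinase-like (2.34), TM6SF2 (2.26), CYP7A1 (2.11) and DSP (1.40). It was more negative at SUN1 (-4.97), LPL (-3.04), OCA2 (-2.91), CPN1 (-1.96), TNNI2 (-1.45) and NEFL (-1.15). L-threonine 3-dehydrogenase, a threonine-degrading enzyme, had 222, 432 and 13.2 FPKM in high-intake livers, against 2.64, 0.467 and 34.9 FPKM in control livers.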

How the results depend on the processing

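The count of 7048 called mRNAs stayed between 6221 and 7243 under all settings that kept the 3 geese, 7012 without the replicate block, and between 5684 and 6154 with a goose left out. The 352 called lncRNAs became 383 without the replicate block and 504 with a pseudocount of 0.1. None was called without a filter (561 had an unadjusted p under 0.05), where limma met features with zero variance, and 111 of 184 were called above a mean of 1 FPKM. With a goose left out the lncRNA count was 18 to 304. The tissue by feeding count of 219 was 69 after centring, 27 without the replicate block and 8 to 525 with a goose left out. Except where a value shows the construction, the cause was not tested. PNPLA2-like (LOC106038244), at 0.83 with all geese and not called, reversed to -1.85 without goose T3, whose SA is listed at 0, and was 2.12 to 2.23 with another goose left out. After centring, 14 named mRNAs lost their call and 4 gained one. Without the block 6 lost and 1 gained. Each group held 3 geese, the depth of each library is unknown, and exact zeros limit single genes.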
